A study of Mus musculus with 11 samples.

Results

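The genes of the mitochondrial genome were taken from a table of gene counts of mouse gastrocnemius, a mixed-fibre calf muscle, as every gene whose symbol starts with mt-. The rule found 37 of the 55385 genes in the table: 13 protein-coding genes, 2 ribosomal RNA (rRNA) genes and 22 transfer RNA (tRNA) genes. All mice had been fasted for 36 h, and all carried floxed alleles of ZEB1 or of ZEB2, which encode zinc-finger proteins that bind DNA and repress epithelial genes. The ZEB1 flx/flx controls gave 2 libraries (numbered 2 and 3), and the ZEB1 flx/flx;HSACre knockouts, ZEB2 flx/flx controls and ZEB2 flx/flx;HSACre knockouts gave 3 libraries each (numbered 1 to 3). HSA-Cre places the recombinase under a promoter of skeletal actin, which works in myofibres, so the other cells of the muscle keep their ZEB genes. A group with HSA-Cre but no floxed allele is not among the samples, and loss of a ZEB gene cannot be told apart from the presence of Cre. Each library held RNA pooled from 2 mice, and the spread behind every p-value is that between such pools. The age of the mice is not given in the sources used here.

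Mitochondria hold their own circular genome, which is transcribed by a dedicated polymerase into long transcripts from each strand. These are cut into messenger, ribosomal and transfer RNAs, and the messenger RNAs gain short poly(A) tails that in several genes complete the stop codon. The encoded proteins are core subunits of respiratory complexes I, III and IV and of the ATP synthase (complex V). The other subunits of these complexes, and all of complex II, come from nuclear genes. In skeletal muscle these transcripts are abundant, more so in oxidative than in glycolytic fibres.

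The 13 protein-coding genes measured 204 to 1824 bases, and 12 of them lay on the plus strand of the mitochondrial chromosome (GENCODE M21 annotation of GRCm38). They have no introns, and some of them overlap a neighbouring gene. The start of mt-Atp6 lies inside the end of mt-Atp8, both of them ATP synthase subunits, over 43 shared bases at chrM:7927-7969. These bases are shown because a read that falls within them cannot be given to either gene by sequence. The start codon of mt-Atp6 is in capitals, and the sequence is from the GENCODE M21 transcripts, as are all sequences printed here.
mt-Atp8 and mt-Atp6, shared bases: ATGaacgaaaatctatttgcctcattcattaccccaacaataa
The genes mt-Nd4l and mt-Nd4 shared 7 bases on the same strand, and mt-Nd5 and mt-Nd6 shared 14 bases on opposite strands.

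The annotated lengths of mt-Co3, mt-Nd4 and mt-Cytb were not multiples of 3, and each ended in a lone T after the last codon. Their last 30 bases are printed with that T in capitals, since the poly(A) tail, on which the library kit selects RNA, is what completes their stop codon.
mt-Co3: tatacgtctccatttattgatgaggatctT
mt-Nd4: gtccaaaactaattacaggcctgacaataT
mt-Cytb: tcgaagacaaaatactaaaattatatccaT

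A stretch of chromosome 1 holds a near-identical copy of part of the mitochondrial genome, annotated as 7 unprocessed pseudogenes on the minus strand within chr1:24611535-24616197. Each matched a mitochondrial protein-coding gene at an identity of at least 99% over at least 95% of the pseudogene. Gm28661 matched mt-Co2, Gm10925 matched mt-Atp6, Gm28437 matched mt-Co3, Gm10222 matched mt-Nd4l and Gm28439 matched mt-Nd4, each at 100% identity. The first 60 bases of mt-Co2 and Gm28661 are printed to show that reads from these genes carry no letter that would separate them.
mt-Co2: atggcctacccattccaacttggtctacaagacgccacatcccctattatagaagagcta
Gm28661: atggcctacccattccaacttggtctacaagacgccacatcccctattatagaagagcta
The 2 other copies each differed from their mitochondrial gene at 1 base of the aligned stretch, printed in capitals. Gm29216 aligned with 483 bases of mt-Co1 at 99.8% identity and carries the substitution A1066T, counted from 1 at the 5′ end of mt-Co1, with the mitochondrial base first.
mt-Co1: ggaAttgttttatccaact
Gm29216: ggaTttgttttatccaact
Gm28438 aligned with 345 bases of mt-Nd3 at 99.7% identity and carries T3C, counted from 1 at the 5′ end of mt-Nd3.
mt-Nd3: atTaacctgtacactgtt
Gm28438: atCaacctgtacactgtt

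The counts were split between these genes and their copies very unevenly. The copy held 97.7% to 99% of the joint counts of mt-Co2 and Gm28661, over the 11 libraries. It held 97.0% to 98.4% for mt-Co3, 92.9% to 95.3% for mt-Atp6, 79.4% to 84.0% for mt-Nd3 and 67.5% to 76.5% for mt-Nd4l. For mt-Co1, whose copy spans only the 3′ part of the gene, it held 9.78% to 14.9%. The copy of mt-Nd4 is also exact but spans only bases 1 to 876 of the 1378 of that gene. This copy held at most 0.0037%, or 0 to 32 counts. The submitters' processing notes name STAR and RSEM, and RSEM shares reads among similar genes by estimation. Counts of these 7 members are therefore uncertain as deposited, and for the ZEB2 line their values are given both as counted and with the counts of the copy added, other than for mt-Nd4, where the copy holds almost none. The sum also takes in any RNA that truly comes from chromosome 1, and that amount was not tested. The remaining 6 protein-coding genes and both rRNA genes had no such copy.

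Total counts ran from 27.3 M to 46.3 M per library, with 31.4 M to 36.0 M in ZEB2 controls and 35.8 M to 46.3 M in ZEB2 knockouts. As a check of the labels, Zeb1 stood at 41.2 and 51.1 CPM in ZEB1 controls and at 28.4, 28.6 and 30.4 CPM in ZEB1 knockouts, and Zeb2 at 23.1 to 25.8 CPM in ZEB2 controls and 14.4 to 18.3 CPM in ZEB2 knockouts. CPM here are counts per 1e6 counts of a library total scaled by the trimmed mean of M values (TMM). The pools differed in sex: Ddx3y, a Y-linked gene, ran from 0.0 to 148.8 CPM in ZEB2 controls and from 130.8 to 258 CPM in ZEB2 knockouts. In the ZEB1 line it ran from 0.0 to 111.9 CPM in controls and from 0.0 to 122.6 CPM in knockouts. Xist, the other sex marker, ran from 0.419 to 185.2 CPM in ZEB2 controls and from 2.09 to 73.1 CPM in ZEB2 knockouts. Its ZEB1 ranges were 154.5 to 370.6 CPM in controls and 0.290 to 468.1 CPM in knockouts. The part of sex in the results was not tested.

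The mitochondrial genes took between 12.1% and 18.0% of all counts. Their share was 15.2% and 14.1% in the 2 ZEB1 controls and 13.2%, 14.0% and 15.2% in the 3 ZEB1 knockouts, so these groups overlapped. Across the ZEB2 controls it was 16%, 17.0% and 18.0%, and across their knockouts 14.9%, 14.7% and 12.1%, with every knockout below every control. The mean fell short of the ZEB2 control mean by 3.08 percentage points, from 17.0% ± 1.00 (SD, n = 3) to 13.9% ± 1.53 (n = 3), with p = 0.1 by a two-sided exact permutation test over libraries, the smallest p that 3 against 3 allows. Adjusted over the 10 tests of shares and ratios, p was 0.25 (exact permutation test, Benjamini-Hochberg). In the ZEB1 line the means were 14.6% ± 0.780 (n = 2) and 14.1% ± 1.02 (n = 3), with p = 0.6 (exact permutation test), where 0.2 is the smallest p that 2 against 3 allows. In bulk libraries such as these, fewer cells of a type and less RNA per cell cannot be told apart.

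With the nuclear-copy counts added, the share of ZEB2 controls was 24.6%, 26.5% and 28.1%, and that of ZEB2 knockouts 23.8%, 23.7% and 19.2%. The groups again did not overlap, and the difference in means was -4.18 percentage points (exact permutation test, p = 0.1). The distance between the lowest control and the highest knockout was smaller on this basis, and the ZEB2 knockout library numbered 3 lay apart from the other 2. The ZEB1 share with copies was 24.3% and 22.3% in controls and 21%, 22.2% and 24.2% in knockouts. The copies alone took 7.0% to 10.1% of all counts.

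**Figure D1:**
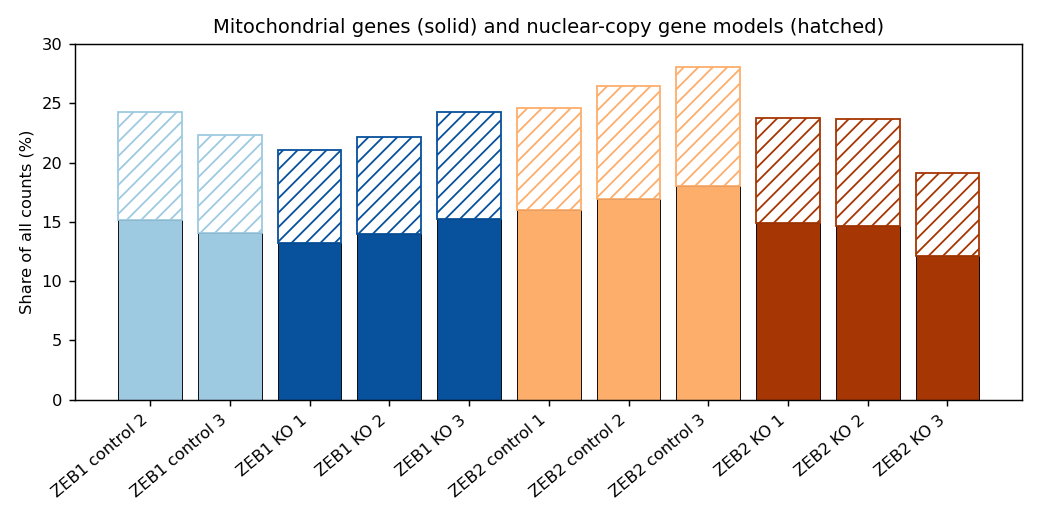
Share of all counts (%, vertical axis) in each of the 11 libraries (horizontal axis). Solid bars are the 37 mitochondrial genes as counted, and hatched bars stacked on them are the 7 near-identical nuclear copies. The solid bars of ZEB2 knockouts (12.1% to 14.9%) all end below those of ZEB2 controls (16% to 18.0%).

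Levels were compared between genes as CPM per kb of gene, averaged over the 11 libraries. As counted, mt-Co1, the catalytic core subunit of cytochrome c oxidase (complex IV), stood highest at 37520 CPM per kb, and in all 11 libraries it exceeded mt-Atp8, the next gene, at 19950. The order then ran through mt-Nd1 (19110 CPM per kb) and mt-Cytb (18090) to mt-Nd4 (13960), mt-Nd2 (11940) and mt-Nd5 (5774). The neighbours mt-Atp8 and mt-Nd1 were not separated, since mt-Atp8 was the higher in only 7 of 11 libraries, nor were mt-Nd1 and mt-Cytb, in 8 of 11. The genes with a copy that takes most counts came far lower, from 1990 CPM per kb for mt-Atp6 to 531 for mt-Co2.

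With copies added, the order changed at the top. The gene mt-Co1 stood at 42840 CPM per kb, followed by mt-Co3 at 38560, mt-Atp6 at 34440 and mt-Co2 at 33830. The 3 complex IV genes and mt-Atp6 thus occupied the 4 highest places, and mt-Co2 exceeded mt-Atp8 in all 11 libraries. The complex I genes mt-Nd3 (8769 CPM per kb) and mt-Nd4l (7048) came below mt-Nd2. The gene mt-Nd6, the only protein-coding gene on the minus strand, was lowest on both scales at 103 CPM per kb, and mt-Nd5, the next protein-coding gene above it with copies added, exceeded it in all 11 libraries. The rRNA genes mt-Rnr2 (1042 CPM per kb) and mt-Rnr1 (987) stood below every plus-strand protein-coding gene with copies added. Libraries that select poly(A) RNA do not measure rRNA by its amount in the cell.

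**Figure D2:**
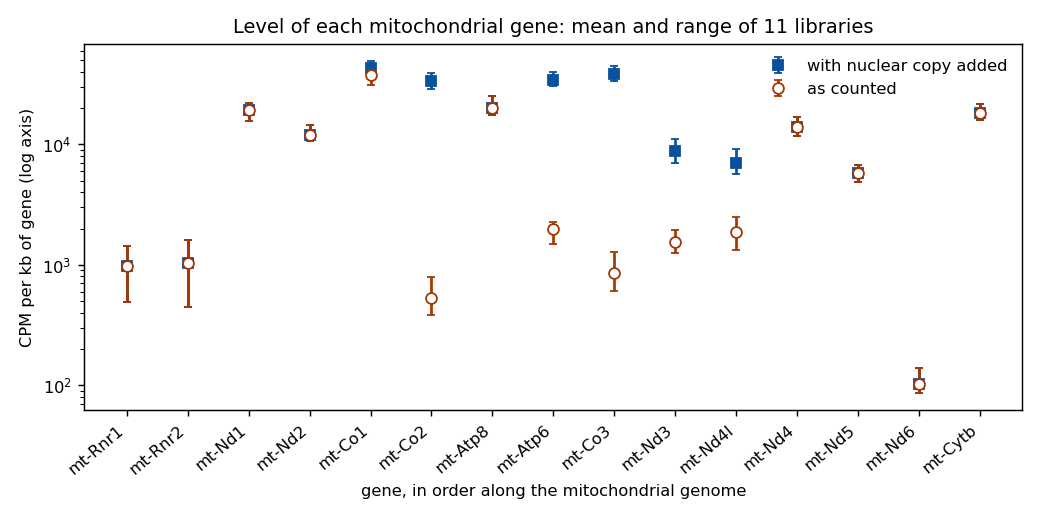
Level of each mitochondrial gene in CPM per kb (vertical axis, log scale), in order along the genome (horizontal axis). Points are means and bars the range of 11 libraries, open circles as counted and filled squares with the nuclear copy added; mt-Co2 stands at 531 as counted and at 33830 with its copy.

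None of the 22 tRNA genes had a count in any library. They measured 59 to 75 bases, 14 on the plus strand and 8 on the minus strand, where they lie between the longer genes. A count of 0 allows up to 3 counts per library, here 0.0649 to 0.110 CPM for each gene (counting error only). The shortest and the longest are printed to show how short these transcripts are beside the messenger RNAs.
mt-Ts2: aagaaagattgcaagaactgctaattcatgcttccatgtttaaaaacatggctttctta
mt-Tl1: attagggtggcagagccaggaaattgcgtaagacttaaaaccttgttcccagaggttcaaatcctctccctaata
The part of their length in these zeros was not tested. The tRNA genes were left out of all further comparisons, which leaves 15 members among the 15416 genes tested.

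In the test across all genes (edgeR quasi-likelihood, Benjamini-Hochberg adjustment, threshold 0.05), 0 of 15 members were called in either knockout comparison, and DESeq2 and limma-voom called 0 as well. In both comparisons 0.0% of all genes were called by edgeR. In the ZEB1 line 0 of 15 members had an unadjusted p below 0.05, against 3.24% of all genes. In the ZEB2 line 1 of 15 members did, mt-Nd6, against 33.2% of all genes. That count depended on scaling and on 1 library: of the 13 protein-coding genes it was 8 when scaled by total counts, 6 by the upper quartile and 6 without the ZEB2 control numbered 1, and 0 to 3 in the remaining alternatives. In these 3 fits 5044, 5038 and 4349 of all genes had such a p, against 5113 as reported, and no member was called. DESeq2 called 16.8% of all genes in the ZEB2 line (2587 genes), and an edgeR fit of the ZEB2 libraries alone called 14.2% (2077 genes), none of them a member in either case.

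In ZEB2 knockouts the protein-coding genes stood mostly lower by a small amount, within the error of the test. Of 13 genes, 11 had a negative and 2 a positive log2 fold change, with a median of -0.20 beside -0.05 over all genes tested. With each copy added to its gene, all 13 were negative, with a median of -0.17. In the ZEB1 line 5 were positive and 8 negative as counted, with a median of -0.04 beside 0.01 over all genes, and 4 were positive and 9 negative with copies added. The ZEB1 tally was 2 positive and 11 negative without the ZEB1 knockout numbered 3, 3 and 10 when scaled by total counts and 7 and 6 with the replicate block (median 0.0032), and the median was -0.10 without the ZEB1 control numbered 2. The ZEB2 groups did not overlap for 3 of 13 protein-coding genes, all lower in knockouts, a share close to the 22.1% of all genes that did so in that direction. The difference between the ZEB2 and the ZEB1 effect was called for 0 of 15 members by edgeR, where 0.0% of all genes were called (9.26% had an unadjusted p below 0.05, and 0 members did). Both DESeq2 and limma-voom also called 0 members for this difference.

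**Figure D3:**
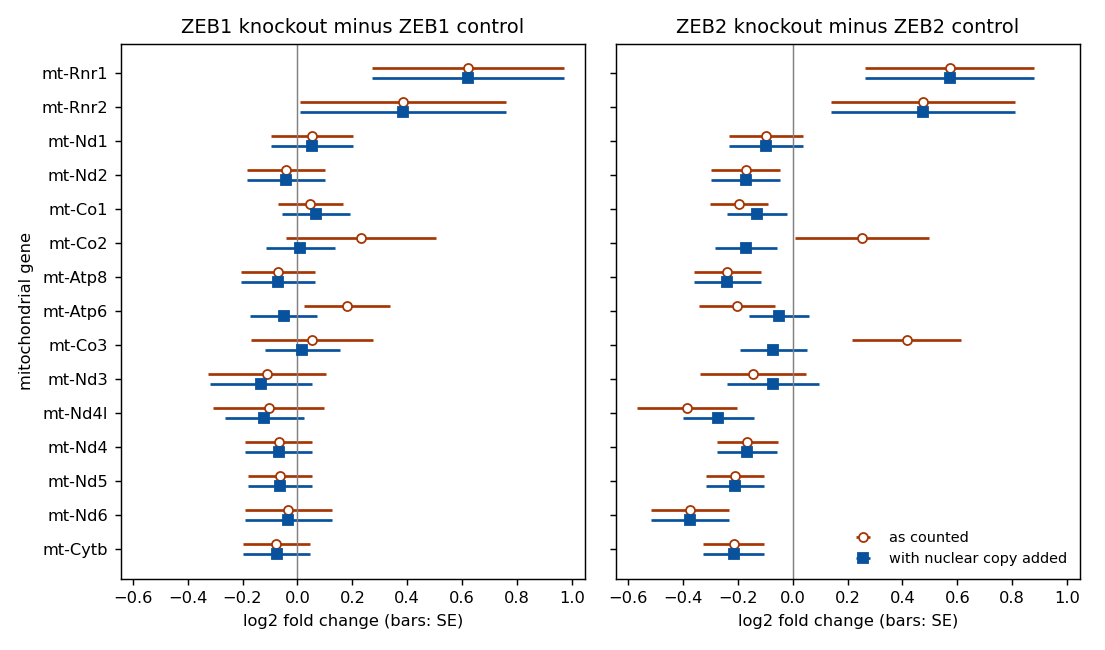
Log2 fold change (horizontal axis) of each of 15 mitochondrial genes (vertical axis) in the ZEB1 line (left) and the ZEB2 line (right), with bars of 1 SE. Open circles are genes as counted and filled squares have the nuclear copy added; in the ZEB2 line mt-Co2 and mt-Co3 move from 0.25 and 0.41 to -0.17 and -0.07.

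The 7 complex I genes encode the membrane core of the NADH dehydrogenase that feeds electrons into the chain. All 7 had a negative log2 fold change in ZEB2 knockouts, from -0.10 for mt-Nd1 to -0.38 for mt-Nd4l, and none passed the test. The gene mt-Nd5 (chrM:11742-13565), which encodes a proton-pumping subunit, measured 11120, 12260 and 12050 CPM across the ZEB2 controls and 10120, 9686 and 10820 CPM across their knockouts. These groups did not overlap, and the log2 fold change was -0.21 (SE 0.10; edgeR, adjusted p = 0.182). Among ZEB1 libraries mt-Nd5 ran from 9777 to 10700 CPM in controls and from 8830 to 10290 CPM in knockouts, with overlap.

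The gene mt-Nd4l, a small membrane subunit, measured 586.7, 683.3 and 747.1 CPM across the ZEB2 controls and 499.5, 519.3 and 526.8 CPM across their knockouts. With the counts of Gm10222 added it measured 2028, 2559 and 2696 CPM across controls and 2004, 2010 and 2023 CPM across knockouts. The groups did not overlap on either basis, but with the copy added the lowest control lay next to the highest knockout. The log2 fold change was -0.38 (SE 0.18) as counted and -0.27 (SE 0.13) with the copy, with adjusted p of 0.163 and 0.164 (edgeR).

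The gene mt-Nd6 (chrM:13552-14070, minus strand), a further membrane subunit, is transcribed from the opposite strand to the other protein-coding genes. It measured 53.9, 62.8 and 71.8 CPM across the ZEB2 controls and 44.5, 47.0 and 53.9 CPM across their knockouts. The highest knockout (53.89 CPM) lay just above the lowest control (53.87 CPM), so the groups overlapped. Its log2 fold change of -0.37 (SE 0.14) had the smallest p among the members tested, 0.0233 before adjustment and 0.109 after it (edgeR). ZEB1 libraries gave 46.8 and 56.8 CPM for controls and 49.59, 48.97 and 53.29 CPM for knockouts, the latter all within the range of the controls.

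As a share of mitochondrial protein-coding counts, which does not depend on scaling to the library total, mt-Nd6 took 0.0351%, 0.0366% and 0.0417% across the ZEB2 controls and 0.0286%, 0.0309% and 0.0411% across their knockouts. The groups overlapped on these counts without copies (exact permutation test, p = 0.4) and with copies added (exact permutation test, p = 0.3). ZEB1 libraries had 0.0347% and 0.0414% in controls and 0.0379%, 0.0371% and 0.0370% in knockouts (exact permutation test, p = 0.8). The strand setting of the counting is not given in the sources used here. Without strand, reads of mt-Nd6 could not be told from those of transcripts running across it from the plus strand.

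The remaining complex I genes overlapped between the ZEB2 groups. The gene mt-Nd1 ranged from 17720 to 20950 CPM in ZEB2 controls and from 14840 to 20840 CPM in knockouts. For mt-Nd2 the ranges were 11130 to 15080 CPM and 11050 to 13060 CPM. For mt-Nd4 they were 19010 to 23450 CPM and 18020 to 20500 CPM. In each of these the lowest value came from the knockout library numbered 3. Without that library, the log2 fold change of mt-Nd1 was 0.05 in place of -0.10, and of all 13 protein-coding genes 9 were negative and 4 positive, with a median of -0.09. The gene mt-Nd3 ran from 476.9 to 680.3 CPM in controls and from 437.1 to 649.5 CPM in knockouts, and its log2 fold change was -0.14 (SE 0.19) as counted and 0.0004 without the library numbered 3. With Gm28438 added, mt-Nd3 measured 2605, 3698 and 3836 CPM across controls and 3225, 3700 and 2725 CPM across knockouts. The groups overlapped on this basis too, and the log2 fold change was -0.07 (SE 0.17).

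The gene mt-Cytb (chrM:14145-15288) encodes cytochrome b, the only complex III subunit made in mitochondria. It measured 19870, 24460 and 24710 CPM across the ZEB2 controls and 19600, 21020 and 18870 CPM across their knockouts. The control numbered 1 lay among the knockouts, and the log2 fold change of -0.21 (SE 0.11) was not called (edgeR, adjusted p = 0.194). ZEB1 libraries gave 20030 and 20920 CPM against 18060, 19620 and 20580 CPM, a log2 fold change of -0.08 (SE 0.12).

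The 3 complex IV genes encode the catalytic core of cytochrome c oxidase, which passes electrons to oxygen. The most abundant, mt-Co1 (chrM:5328-6872), measured 67120, 67660 and 67620 CPM across the ZEB2 controls and 65530, 60510 and 50670 CPM across their knockouts. The controls lay close together and every knockout was below them, with a log2 fold change of -0.20 (SE 0.11; edgeR, adjusted p = 0.214). Without the knockout numbered 3 it was -0.08, and without the knockout numbered 1 it was -0.28, the ends of the range over libraries left out. With the counts of Gm29216 added the groups overlapped, at 75490, 75260 and 74920 CPM for controls and 76540, 71040 and 58580 CPM for knockouts, and the log2 fold change was -0.13 (SE 0.11). The separation of mt-Co1 as counted was absent once its nuclear copy was included.

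The genes mt-Co2 and mt-Co3 were the 2 with a positive log2 fold change in the ZEB2 line, and in both the sign turned when the copy was added. As counted, mt-Co2 measured 410.6, 264.5 and 287.7 CPM across the ZEB2 controls and 400.2, 403.1 and 343.9 CPM across their knockouts. With Gm28661 it measured 23440, 26930 and 26520 CPM across controls and 24210, 24430 and 19770 CPM across knockouts. The log2 fold change was 0.25 (SE 0.24) as counted and -0.17 (SE 0.11) with the copy (edgeR, adjusted p = 0.476 and 0.304).

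As counted, mt-Co3 measured 477.4, 841.3 and 649.5 CPM across the ZEB2 controls and 860.8, 995.5 and 767.7 CPM across their knockouts. With Gm28437 it measured 27810, 34840 and 34090 CPM across controls and 32320, 33360 and 26420 CPM across knockouts, and the groups overlapped on both bases. Its log2 fold change was 0.41 (SE 0.20) as counted and -0.07 (SE 0.12) with the copy (edgeR, adjusted p = 0.166 and 0.700). The values as counted rest on the small part of the joint counts that Gm28437 does not hold.

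The ATP synthase genes were mt-Atp8 and mt-Atp6, which encode subunits of its membrane part. The gene mt-Atp8 measured 3972, 4808 and 5160 CPM across the ZEB2 controls and 4117, 4094 and 3609 CPM across their knockouts, a log2 fold change of -0.24 (SE 0.12; edgeR, adjusted p = 0.189). The control numbered 1 lay below 2 of the knockouts. As counted, mt-Atp6 measured 1406, 1433 and 1418 CPM across the ZEB2 controls and 1213, 1474 and 1012 CPM across their knockouts, a log2 fold change of -0.20 (SE 0.14). The highest knockout lay above all 3 controls, so the groups overlapped. With Gm10925 added, mt-Atp6 measured 22240, 26110 and 26990 CPM across controls and 25160, 26180 and 21490 CPM across knockouts, and its log2 fold change of -0.05 (SE 0.11) was the smallest of the 13 on that basis. Between the ZEB1 groups mt-Atp6 as counted was the 1 protein-coding gene whose groups did not overlap, with knockouts higher (1235 and 1342 CPM against 1357, 1542 and 1483 CPM), in a comparison where 7.19% of all genes did so. With the copy added it overlapped, at 22280 and 22580 CPM against 20880, 21820 and 22280 CPM. On that basis mt-Nd4l was the 1 gene without overlap, with knockouts lower (2043 and 2036 CPM against 1677, 2008 and 1941 CPM), as were 6.69% of all genes.

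The make-up was also described as shares of mitochondrial protein-coding counts with copies added. The gene mt-Co1 took 25.9% to 31.9% in the 11 libraries, mt-Co3 took 11.8% to 13.6% and mt-Atp6 took 9.41% to 10.5%. For mt-Co2 the range was 9.5% to 10.3%, with an average of 9.91%. Among less abundant genes, mt-Nd5 took 3.90% to 5.19% and mt-Nd3 1.10% to 1.49%. In the ZEB2 line the largest difference in means was that of mt-Atp6, with every knockout above every control. Its control mean was 9.70% ± 0.299 (SD, n = 3) and its knockout mean 10.3% ± 0.236 (n = 3). In the ZEB1 line it was that of mt-Co1, at 26.5% ± 0.802 (n = 2) and 27.8% ± 1.60 (n = 3), with overlap. There mt-Nd2, mt-Atp8, mt-Nd3 and mt-Nd4 had every knockout below both controls, as did 6.69% of all genes by CPM. In the ZEB2 line 21.3% of all genes had every knockout above every control by CPM. The shares within a library add up to a fixed total, so they do not move independently. These shares were not tested.

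The rRNAs of the small (mt-Rnr1, chrM:70-1024) and the large (mt-Rnr2, chrM:1094-2675) mitochondrial ribosomal subunit had positive log2 fold changes in the ZEB2 line. In ZEB2 controls mt-Rnr1 stood at 688.1, 1049 and 821.4 CPM and in ZEB2 knockouts at 1375, 1350 and 1077 CPM. Every knockout exceeded every control, as did those of 21.3% of all genes, and the log2 fold change of 0.57 (SE 0.31) was not called (edgeR, adjusted p = 0.212). The values of mt-Rnr2 were 1268, 1994 and 1671 CPM against 2536, 2383 and 1936 CPM, with overlap and a log2 fold change of 0.47 (SE 0.33). Among ZEB1 libraries mt-Rnr1 measured 520.7 and 692.3 CPM across controls and 1105, 467.6 and 1225 CPM across knockouts. There the knockout numbered 2 lay below both controls and the other 2 above them.

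**Figure D4:**
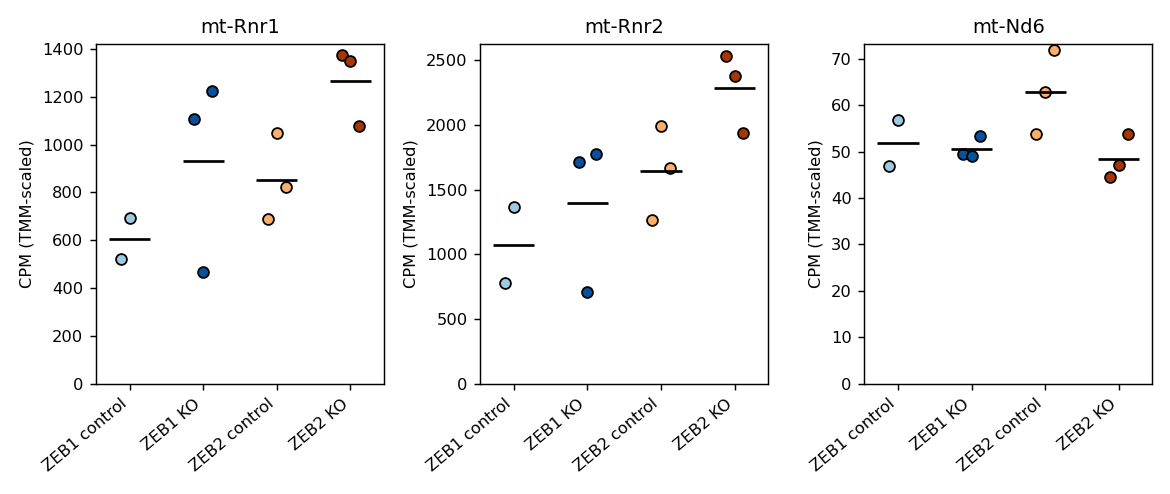
TMM-scaled CPM (vertical axes, from 0) of mt-Rnr1, mt-Rnr2 and mt-Nd6 in the 4 groups (horizontal axes); points are libraries and lines group means. For mt-Rnr1 the ZEB2 knockouts (1077 to 1375 CPM) lie above the ZEB2 controls (688.1 to 1049 CPM), and for mt-Nd6 the groups meet at 53.9 CPM.

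The rRNAs were also taken as a share of all mitochondrial counts, here without copies. It was 1.26%, 1.74% and 1.43% across the ZEB2 controls and 2.45%, 2.39% and 2.25% across their knockouts. The groups lay well apart, with means of 1.48% ± 0.246 (SD, n = 3) and 2.36% ± 0.105 (n = 3), a difference of 0.887 percentage points. The two-sided exact permutation test gave p = 0.1, the smallest that 3 against 3 allows, and 0.25 after adjustment over the 10 tests. The ZEB1 share was 0.951% and 1.48% in controls and 2.11%, 0.886% and 2.04% in knockouts (exact permutation test, p = 0.6). Leaving out any 1 library kept the ZEB2 difference between 0.778 and 1.02 percentage points. With the copies added to the mitochondrial counts, the ZEB2 means were 0.951% in controls and 1.48% in knockouts. That difference was 0.531 percentage points, without overlap (exact permutation test, p = 0.1).

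The 2 control groups were compared with each other as well. In ZEB2 controls against ZEB1 controls, 12 of 13 protein-coding genes were higher as counted (median log2 fold change 0.21) and 13 of 13 with copies added. Of the 13, 5 had ZEB2 controls all above ZEB1 controls, where 8.96% of all genes did so, and 0 had them all below (7.66% of all genes). The gene mt-Co1 stood at 50120 and 51390 CPM in ZEB1 controls, against the 67120 to 67660 CPM of ZEB2 controls, a log2 fold change of 0.41 (SE 0.12), for which edgeR gave 0.00571 before adjustment. No member was called (edgeR, adjusted p = 1.00 for mt-Co1), in a comparison where edgeR called 0.0195% of all genes, and 1 of 15 members had an unadjusted p below 0.05, against 3.32% of all genes. Without the ZEB2 control numbered 1, 6 of 13 protein-coding genes had such a p (730 of 15355 genes in all) and their median log2 fold change was 0.32. Without the ZEB1 control numbered 2, 0 had one and the median was 0.15. DESeq2 and limma-voom called 0 members. Since the ZEB2 controls are the reference of the ZEB2 comparison, both comparisons share them. For mt-Co1 the ZEB2 knockout numbered 3 (50670 CPM) lay between the ZEB1 controls, and those numbered 1 and 2 (65530 and 60510 CPM) lay above them.

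The nuclear genes of the same complexes were set beside the mitochondrial ones. In the ZEB2 line 44 of 82 nuclear subunit genes were higher and 38 lower (median log2 fold change 0.02), and edgeR called 0. Of the 82, 10 had an unadjusted p below 0.05 (edgeR), against 33.2% of all genes. In the ZEB1 line 80 were higher and 2 lower with a median of 0.11, beside 0.01 over all genes, and again 0 were called. There 0 had an unadjusted p below 0.05 (edgeR), against 3.24% of all genes. Between controls, 78 of the 82 were higher in ZEB2 than in ZEB1 controls and 4 lower, with a median of 0.11 beside 0.01 over all genes. Complex II, which has no mitochondrial gene, had 4 of 4 genes lower in ZEB2 knockouts with a median of -0.30. Among them Sdhd, a membrane anchor of succinate dehydrogenase, measured 211.7, 243.4 and 261.6 CPM across the ZEB2 controls and 184.0, 199.7 and 150.9 CPM across their knockouts (edgeR, adjusted p = 0.108). Within complex I, Ndufs1, an iron-sulphur subunit, had a log2 fold change of -0.59 (SE 0.14) and Ndufa7, an accessory subunit, one of 0.49 (SE 0.12), each with an adjusted p of 0.0775 (edgeR).

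The log2 ratio of summed mitochondrial to summed nuclear subunit counts was 2.76, 2.86 and 2.82 across the ZEB2 controls and 2.68, 2.60 and 2.71 across their knockouts. Every knockout was below every control, with a difference in means of -0.15 (exact permutation test, p = 0.1, adjusted p = 0.25 over the 10 tests). With copies added the ratio was 3.39, 3.51 and 3.47 against 3.37, 3.30 and 3.38, again without overlap, and the difference was -0.11. The ZEB1 ratio was 2.60 and 2.70 in controls and 2.30, 2.54 and 2.72 in knockouts, where 1 knockout lay above both controls.

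Taken complex by complex with copies added, the ratio for complex IV was 4.88, 4.92 and 4.87 across the ZEB2 controls and 4.68, 4.60 and 4.72 across their knockouts, a difference of -0.23 without overlap. For complex I the difference was -0.14, also without overlap. For complex III it was -0.11 and for complex V -0.02, both with overlap. The exact permutation tests gave p = 0.1 for complexes I and IV, and 0.4 after adjustment over the 8 tests of 4 complexes in 2 lines. The summed level of the 14 nuclear complex IV genes was 4493 CPM ± 172 (SD, n = 3) in ZEB2 controls and 4836 CPM ± 738 (n = 3) in ZEB2 knockouts.

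**Figure D5:**
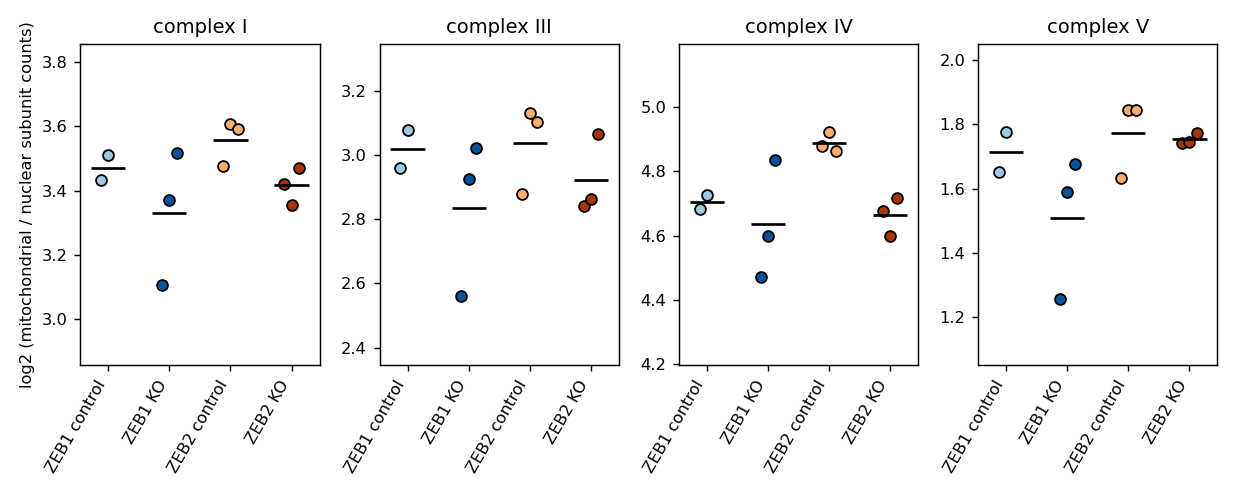
Log2 ratio of mitochondrial (with nuclear copies) to nuclear subunit counts (vertical axes, each spanning 1 log2 unit) for complexes I, III, IV and V in the 4 groups (horizontal axes); points are libraries and lines group means. In complex IV the ZEB2 knockouts (4.60 to 4.72) lie below the ZEB2 controls (4.87 to 4.92), and in complex V the ZEB2 groups overlap.

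Nuclear genes that act on the mitochondrial genome and its transcripts were described by list, and edgeR called 0 genes of any of these lists in either line. The counts of genes at an unadjusted p below 0.05 in the ZEB2 line stand beside the 33.2% of all genes that reached it. Of 9 genes for transcription of mitochondrial DNA, 5 were higher and 4 lower in ZEB2 knockouts (median log2 fold change 0.09), with 3 at an unadjusted p below 0.05. Mterf2, of the mitochondrial transcription termination factor family, measured 9.77, 9.57 and 12.9 CPM across the ZEB2 controls and 5.94, 5.98 and 2.84 CPM across their knockouts, a log2 fold change of -1.13 (SE 0.28; edgeR, adjusted p = 0.0775). Tfb2m and Mterf3 of the same list went the other way, with log2 fold changes of 0.47 (SE 0.18) and 0.45 (SE 0.18). For transcript processing, 9 of 14 genes were higher and 5 lower (median 0.10, 4 at an unadjusted p below 0.05). Elac2, which cuts the 3′ ends of tRNAs, stood at 28.7, 29.5 and 20.6 CPM against 41.0, 45.6 and 67.7 CPM. For RNA stability and decay, 4 of 8 were higher and 4 lower (median 0.03, 2 at an unadjusted p below 0.05). Rexo2, an oligoribonuclease, stood at 41.5, 62.0 and 34.5 CPM against 79.9, 83.9 and 124.5 CPM.

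The rRNA modification list had 2 of 6 genes higher and 4 lower in ZEB2 knockouts (median -0.47, 2 at an unadjusted p below 0.05). Nsun4, a methyltransferase of the small-subunit rRNA, measured 14.5, 16.9 and 18.6 CPM across the ZEB2 controls and 9.17, 11 and 9.07 CPM across their knockouts (log2 fold change -0.77, SE 0.20; edgeR, adjusted p = 0.0775). Of 11 translation factors, 5 were higher and 6 lower (median -0.01, 4 at an unadjusted p below 0.05). Taco1, an activator of translation of the mt-Co1 messenger RNA, measured 14.1, 20.1 and 23.0 CPM across the ZEB2 controls and 9.94, 10.1 and 9.07 CPM across their knockouts. The log2 fold change was -0.98 (SE 0.18; edgeR, adjusted p = 0.0775), and the 3 knockouts lay close together below every control. Among ZEB1 libraries Taco1 stood at 17.8 and 13.5 CPM against 14.2, 15.8 and 14.6 CPM, with overlap. Of the same list, Mtif2 had a log2 fold change of -0.56 (SE 0.15) in the ZEB2 line and C1qbp one of 0.53 (SE 0.18).

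Further lists were mixed. Of 17 mitochondrial aminoacyl-tRNA synthetases, 6 were higher and 11 lower in ZEB2 knockouts (median -0.13, 6 at an unadjusted p below 0.05), and of 10 tRNA modification genes 7 were higher and 3 lower (median 0.27, 3 at an unadjusted p below 0.05). Of 11 genes for replication of mitochondrial DNA and its nucleotide supply, 7 were higher and 4 lower (median 0.09, 3 at an unadjusted p below 0.05). Of 9 nuclear regulators, 5 were higher and 4 lower (median 0.24, 6 at an unadjusted p below 0.05). Among these Perm1, a muscle regulator of oxidative genes, measured 94.0, 103.7 and 138.6 CPM across the ZEB2 controls and 52.2, 59.9 and 25.3 CPM across their knockouts (log2 fold change -1.29, SE 0.34; edgeR, adjusted p = 0.0785). Ppargc1b, a coactivator of mitochondrial biogenesis, had a log2 fold change of -1.79 (SE 0.53, adjusted p = 0.0832 by edgeR). Both belong to the 4 lower genes of the list, and the 5 higher genes are not named here. In the ZEB1 line Perm1 had a log2 fold change of 0.67 (SE 0.38) and Ppargc1b one of -0.39 (SE 0.56).

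Fibre and cell type markers are given first for the ZEB2 line by the same counts. The 8 slow oxidative fibre markers were lower in ZEB2 knockouts for 8 of 8, and their summed level was 3760 to 4461 CPM in controls and 2168 to 3514 CPM in knockouts. The 8 fast fibre markers were higher for 6 of 8, with sums of 80240 to 92910 CPM and 98920 to 107600 CPM. Lower levels also ran through the lists for other cell types. Fibroblast markers were lower for 6 of 7, with sums of 1851 to 2347 CPM and 1652 to 1798 CPM, and macrophage markers for 8 of 9, with sums of 121.7 to 158.9 CPM and 98.2 to 110.2 CPM. Endothelial markers were lower for 7 of 7 (602.6 to 804.9 CPM and 478.5 to 617.9 CPM), smooth muscle and pericyte markers for 6 of 6 (534.5 to 599.6 CPM and 417.6 to 434.9 CPM), adipocyte markers for 5 of 5 (74.6 to 137.2 CPM and 25.1 to 78.7 CPM) and erythroid markers for 8 of 8 (1452 to 1851 CPM and 1174 to 1472 CPM). The summed levels of the endothelial, adipocyte and erythroid lists overlapped between the ZEB2 groups. In ZEB1 knockouts the slow oxidative markers were also lower for 8 of 8, and the fast fibre markers for 4 of 8. Fibroblast markers were lower there for 7 of 7, macrophage for 8 of 9, erythroid for 7 of 8, endothelial for 5 of 7 and adipocyte for 4 of 5. Smooth muscle and pericyte markers were higher there for 5 of 6. Between controls, the slow oxidative markers were lower in ZEB2 controls for 8 of 8.

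The 12 myofibre markers were abundant in every library, with sums of 108700 to 114800 CPM in ZEB2 controls and 125100 to 126900 CPM in ZEB2 knockouts, and 7 were higher and 5 lower. Myh2, the myosin heavy chain of fast oxidative fibres, chosen here after its values were seen, measured 2237, 2732 and 3469 CPM across the ZEB2 controls and 871.1, 1290 and 731.4 CPM across their knockouts. Every knockout was below every control, as for 22.1% of all genes. The log2 fold change was -1.54 (SE 0.24), and edgeR gave 3.77e-05 before and 0.0775 after adjustment. Myh7, the slow myosin heavy chain, stood at 442.0, 366.0 and 483.4 CPM against 189.2, 262.8 and 172.2 CPM. Ckm, of the same list, went the other way, at 12980, 14760 and 13770 CPM against 17920, 17990 and 18280 CPM (log2 fold change 0.38, SE 0.11). Among ZEB1 libraries Myh2 stood at 2811 and 2048 CPM against 1329, 1655 and 1711 CPM, also with every knockout lower, as for 6.69% of all genes. Its log2 fold change there was -0.63 (SE 0.25), that of Myh7 -0.41 (SE 0.36) and that of Ckm 0.12 (SE 0.12). None of these markers was called by edgeR. The part of fibre makeup, other cell types and total counts in the mitochondrial shares was not tested.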

How the data were processed

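Per the labels' protocols, the kit selected poly(A) RNA and kept strand. The authors deposited estimated counts per gene as whole numbers, not normalized. STAR, RSEM, DESeq2 and GRCm38 are named, without versions, in the submitters' processing notes, and their settings and strand option are not given. Members and lists were chosen with earlier results of these data known. All 37 member identifiers matched GENCODE M21. Nuclear copies were found by blastn 2.17.0 between transcripts. Genes were kept by filterByExpr (minimum count 10, minimum total 15), scaled by TMM and fitted in edgeR 4.0.16 (R 4.3.3) by a robust quasi-likelihood test over 11 libraries with 4 group means. P-values were Benjamini-Hochberg adjusted over 15416 genes. An SE is the size of the log2 fold change over the root of its F statistic. Shares were compared by two-sided exact permutation tests (scipy 1.17.1). The 13 protein-coding and 2 rRNA genes were all named, and other genes were up to 3 of a list with the smallest p. On simulated counts with 200 changed genes, the edgeR fit called 37 of 98 genes at a log2 change of 1 or -1. Alternatives were DESeq2 1.42.0, limma-voom (limma 3.58.1), other scalings, filters and fits, and omission of each library.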

Additional observations from a re-analysis of the deposited data

How the results depend on the processing

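No member passed the threshold in any of 1305 refitted values of 60 member results, of which 1255 kept their direction and 50 did not. In the ZEB2 line the smallest adjusted p of the 13 protein-coding genes ran from 0.0740 to 0.349 over 22 alternatives. Scaling by total counts or by the upper quartile moved the median of all genes in the ZEB2 line from -0.05 to -0.17 and -0.18 and that of the protein-coding genes to -0.32 in each, so the gap between both medians stayed about as wide.

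Adding nuclear copies, chosen after seeing the data, turned mt-Co2 (ZEB2 -0.17, difference of effects -0.18, controls 0.24), mt-Co3 (ZEB2 -0.071, difference -0.088), mt-Atp6 (ZEB1 -0.050, difference 0.0014) and mt-Nd3 (difference 0.062). Total counts turned mt-Nd1 (-0.0045) and mt-Co1 (-0.0082) in the ZEB1 line and mt-Co2 in the difference (-0.042), where the upper quartile gave -0.057. The limma-voom fit turned mt-Rnr1 in the difference (0.068). The cause of these turns was not tested.

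Control and knockout libraries of the same label number had correlations of 0.47 and 0.17 in the ZEB1 line and 0.20, -0.03 and -0.31 in the ZEB2 line. Libraries of different numbers were not set beside them, so these values cannot decide whether the numbers pair libraries. A fit with the number as a replicate block turned mt-Nd2 (0.0032) and mt-Nd6 (0.033) in the ZEB1 line and called 1 gene between controls, against 3 without the block.

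Genes called over the whole table rose from 0 to 21 with DESeq2, 1 with limma-voom and 6 without a filter in the ZEB1 line, and to 2587 with DESeq2, 348 without a filter and 2077 with the ZEB2 libraries alone. For the difference they were 17 with DESeq2 and 2 without a filter, and between controls 16 with DESeq2, 5 with RLE scaling and 7 without a filter. With 1 library omitted they ran from 0 to 5 in the ZEB1 line, 0 to 3 for the difference and 1 to 5 between controls. ZEB1 control 2 or ZEB1 knockout 2 gave the first 2 of these, and ZEB1 knockout 1 and ZEB2 control 1 or 2 the third.

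Omitting 1 library gave ranges that crossed 0 in the ZEB1 line for the mitochondrial share (-1.06 to 0.0416 percentage points), the protein-coding share (-1.15 to 0.0131) and the mt-Nd6 share (-0.0041 to 0.0027); the first 2 turned without ZEB1 control 2 and the last without ZEB1 control 3. On the log2 scale the ZEB1 ranges that crossed 0 were -0.034 to 0.12 for mt-Nd1, -0.0098 to 0.10 for mt-Co1, -0.059 to 0.56 for mt-Co2, -0.16 to 0.27 for mt-Co3, -0.26 to 0.027 for mt-Nd3, -0.33 to 0.039 for mt-Nd4l and -0.18 to 0.10 for mt-Nd6. In the ZEB2 line they were -0.20 to 0.054 for mt-Nd1 and -0.31 to 0.0004 for mt-Nd3. Without crossing 0, the ZEB2 values of mt-Nd2 (-0.30 to -0.088), mt-Co2 (0.13 to 0.47), mt-Co3 (0.23 to 0.63), mt-Atp6 (-0.35 to -0.059), mt-Atp8 (-0.34 to -0.16) and mt-Nd4 (-0.25 to -0.097) also moved by over 1.5 times. For the difference they were -0.25 to 0.017 for mt-Nd1, -0.29 to 0.33 for mt-Co2, -0.20 to 0.14 for mt-Nd3, -0.37 to 0.23 for mt-Rnr1 and -0.34 to 0.49 for mt-Rnr2, and between controls -0.38 to 0.24 for mt-Co2 and -0.0195 to 0.27 for mt-Nd3.

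The denominator without the 10 most abundant nuclear genes was run for the mitochondrial and protein-coding shares alone, and a fit of only the groups compared gives no value for the difference. With 2 or 3 pools a group, the exact tests cannot pass 0.05.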
